A study of Mus musculus with 12 samples.

Results

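The higher and the lower dose of iMSC-EVs were compared in mouse kidney after cisplatin, across all genes of the deposited count table. The members are 6 of the 12 libraries, 3 from mice given 200 µg (EV200) and 3 from mice given 400 µg (EV400), and 18730 of 45777 genes passed the expression filter and were tested. All mice were wild-type C57BL/6 males. Both dose groups first received intraperitoneal cisplatin at 9 mg/kg each week for 5 cycles, then 5 intravenous injections of iMSC-EVs 3 days apart, with kidneys taken 3 days after the last. Mice of the PBS group received the same cisplatin and PBS in place of vesicles, and normal mice received neither cisplatin nor vesicles. Each of these 2 groups has 3 libraries, which entered the same fit and are given beside the doses. The labels speak of biological replicates without saying that each is a separate mouse, so p-values measure the spread between these samples.

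Extracellular vesicles are membrane-bound particles that carry protein and RNA between cells, and iMSC is the labels' abbreviation for the cells that released them. Cisplatin is a platinum drug that crosslinks DNA, is taken up by tubular cells of the kidney and injures mainly the proximal tubule. Injured tubules shed or secrete marker proteins such as those of Havcr1 and Lcn2, attract macrophages, and can be followed by deposition of collagen between the tubules. The series title names this fibrosis and its attenuation by iMSC-EVs, and the dose comparison asks how kidneys given more vesicles differed from kidneys given fewer.

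Total counts of the 6 libraries ranged from 47.8 to 61.8 M (M, counts in units of 1e6), with each EV400 library at 47.8 to 48.4 M and each EV200 library at 53.02 to 61.8 M. A library of each dose stood apart. On the first principal component of log2 CPM (counts per 1e6 counts of the library), which carried 43.4% of the variance, EV200 3 lay at 60.5 while EV200 1 and EV200 2 lay at -18.7 and -8.59, and the PBS libraries at 15.4 to 83.4. EV400 3 lay at -52.1 while EV400 1 and EV400 2 lay at 1.06 and 7.93, and the normal libraries at -47.9 to -39.0. EV400 3 also lay alone on the second component, at -51.5, had the highest value of all 12 libraries in 3548 genes and the lowest in 3082, and spent 19.7% of its counts on mitochondrial mRNAs against 14.2 to 16.4% in the other dose libraries. Among all 12 libraries, PBS 2 was extreme in more genes, with the highest value in 4681 and the lowest in 4937, and had 18.1% mitochondrial mRNA. PBS 2 entered the same fit. The outlying dose libraries EV200 3 and EV400 3 lay near opposite ends of the first component. Fold changes and list medians are given below with all 6 libraries and, for most, also without EV200 3 and EV400 3.

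**Figure D1:**
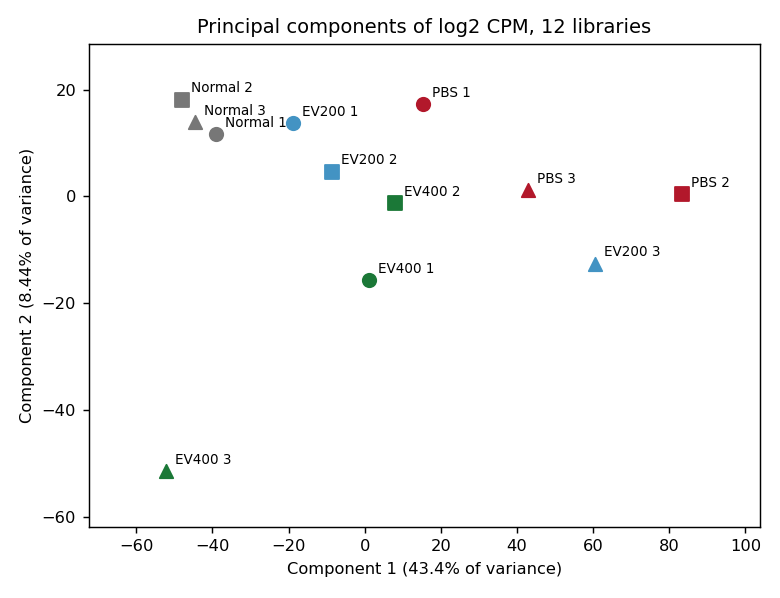
First 2 principal components of log2 CPM over the genes tested, with 1 point per library and the marker shape giving the replicate number. EV200 3 lies among the PBS libraries on the horizontal axis, and EV400 3 lies near the normal libraries on that axis and apart from all others on the vertical one.

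In the quasi-likelihood test of edgeR, 1 gene of 18730 differed between the doses at a Benjamini-Hochberg adjusted p under 0.05 (0.00534% of the genes tested). The next smallest adjusted p was 0.769. All further p-values below are unadjusted ones of the same test, and no gene with one is a call. At an unadjusted p under 0.05 there were 473 genes with EV400 higher (2.53%) and 714 with EV400 lower (3.81%). The 3 EV400 libraries lay above all 3 EV200 libraries in 955 genes (5.1%) and below them in 1044 genes (5.57%). The median log2 fold change, EV400 minus EV200, was -0.02 over all genes tested, and 53.7% of them had a negative one. Of genes past 1 on the log2 scale, 497 were lower and 141 higher in EV400.

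Without EV200 3 and EV400 3, no gene was called by the same test, the smallest adjusted p was 0.115, and 916 of 19018 genes had an unadjusted p under 0.05. These were 454 with EV400 higher (2.39%) and 462 with EV400 lower (2.43%), so the excess of lower genes was not seen without these libraries. Of the 19018 genes, 49.8% had a negative log2 fold change. Over all genes, 66.9% kept the sign of their log2 fold change. Of the genes past 1, 387 of the 497 lower ones and 137 of the 141 higher ones kept it. Of the 1187 genes with an unadjusted p under 0.05 in all 6 libraries, 1180 kept their sign and 358 had an unadjusted p under 0.05 again, 129 higher and 229 lower in EV400. The smaller comparison uses 4 of the same 6 dose libraries and is not independent of the larger one.

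**Figure D2:**
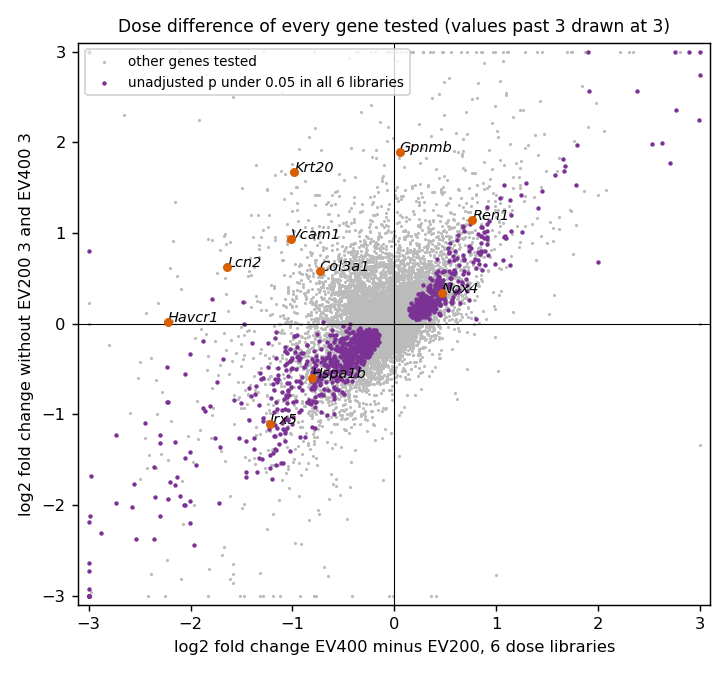
Log2 fold change of each gene, EV400 minus EV200, in the 6 dose libraries (horizontal) and without EV200 3 and EV400 3 (vertical), with named examples in orange. Genes with an unadjusted p under 0.05 (purple) lie mostly along the diagonal, while Lcn2, Vcam1, Col3a1 and Krt20 lie at negative horizontal and positive vertical values.

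The called gene was LOC115488616, a transcribed pseudogene model described in RefSeq as resembling cytoplasmic dynein light chain 1 (RefSeq symbol Gm52232; chromosome 16, 8843237 to 8846433, GRCm38.p6). It had a count of 0 in EV200 1, EV200 2 and EV200 3, and 0.501, 0.477 and 0.580 CPM in the EV400 libraries, which are counts of 24, 23 and 25. In PBS the values were 0.476, 0.520 and 0.352 CPM and in normal kidney 0.399, 0.493 and 0.540 CPM. Thus the EV200 libraries were the only 3 of 12 without a read, and the 9 others overlapped. Against a floor of 3 counts over the EV200 group, EV400 was at least 29.9-fold higher (adjusted p = 0.00587 by edgeR). Without EV200 3 and EV400 3 the adjusted p was 0.115, and in a fit of the 6 dose libraries alone it was 0.863. DESeq2 called 17 genes between the doses and limma-voom with quality weights 145, each with this gene among them. It lies outside the naming rule as a provisional model. Its span shares 895 of 3197 bases with exons of 1810013L24Rik, which had 44.3 ± 1.01 CPM in EV200 and 45.4 ± 3.61 CPM in EV400 (SD, n = 3). Dynll1, the parent-like gene for that light chain, had 45.3 ± 4.59 and 39.7 ± 1.23 CPM. Reads of such copies can be assigned to either gene, and the sources used here do not state how the authors' counting treated them.

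The inducible heat shock genes Hspa1a and Hspa1b, which encode the chaperone HSP70 (chromosome 17, 34969359 to 34972156 and 34956429 to 34959238), had lower levels in every EV400 library than in any EV200 library. The naming rule required such a lack of overlap. Hspa1b had 31.3, 25.5 and 36.3 CPM in EV200 1 to 3 and 16.1, 21.4 and 15.5 CPM in EV400 1 to 3. In PBS they were 32.5, 34.2 and 26.5 CPM and in normal kidney 18.2, 16.2 and 16.03 CPM. The EV200 range thus overlapped that of PBS and the EV400 range that of normal. This is a log2 fold change of -0.81 (SE 0.15, unadjusted p 0.000207), and -0.59 without EV200 3 and EV400 3 (unadjusted p 0.00498). Hspa1a had 24.6, 20.3 and 24.4 CPM against 13.5, 17.4 and 13.7 CPM, a log2 fold change of -0.64 (SE 0.13, unadjusted p 0.000285) and -0.54 without both libraries. The pair are near-identical copies whose reads the counting may have split, so they are not 2 independent genes. Their upstream sequence is shown because it shares its heat shock element and almost all other bases. In RefSeq's GRCm38.p6 windows of 250 bases that end just before the start of each gene, on the minus strand of chromosome 17 (34972157 to 34972406 for Hspa1a and 34959239 to 34959488 for Hspa1b), 247 of 250 bases were identical. Capitals mark GAANNTTC, an inverted pair of heat shock factor repeats that reads the same on both strands, which begins 104 bases before each start. It occurs in 6.69% of 32851 such windows.
Hspa1a: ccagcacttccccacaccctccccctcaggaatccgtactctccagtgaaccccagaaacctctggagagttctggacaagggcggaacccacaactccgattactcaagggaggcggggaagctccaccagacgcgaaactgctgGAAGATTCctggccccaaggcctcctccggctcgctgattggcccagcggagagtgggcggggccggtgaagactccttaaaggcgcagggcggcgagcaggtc
Hspa1b: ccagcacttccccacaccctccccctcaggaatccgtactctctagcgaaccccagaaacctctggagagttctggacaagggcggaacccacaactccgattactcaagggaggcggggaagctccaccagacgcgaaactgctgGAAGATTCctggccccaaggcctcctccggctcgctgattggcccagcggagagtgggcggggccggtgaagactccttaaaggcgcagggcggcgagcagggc

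Hspb1, which encodes a small heat shock protein, had 5.17, 5.37 and 14.6 CPM in EV200 and 3.69, 4.97 and 3.73 CPM in EV400, with EV200 3 far above the others. That gave a log2 fold change of -1.02 (SE 0.36) and -0.28 without both libraries. In the list of 20 heat shock and immediate early genes, 18 had a negative log2 fold change, 3 of these at an unadjusted p under 0.05 and 3 without overlap, and 2 had a positive one. Over all genes tested, 3.81% had such a p with EV400 lower and 5.57% had no such overlap. The list median was -0.32, and -0.16 without both libraries. There 5 members with EV400 lower had an unadjusted p under 0.05, among them the cochaperone gene Dnajb1 at -0.28 and the chaperone gene Hsp90aa1 at -0.26, and Egr2 with EV400 higher at 1.31. Over all genes tested without both libraries, 2.43% had such a p with EV400 lower and 2.39% with EV400 higher. The immediate early genes Fos, Atf3 and Egr2 had negative values with all 6 libraries and positive ones without both, so the list did not move as one.

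Genes of the loop of Henle, the segment that reabsorbs salt and concentrates urine, were mostly lower in EV400. Of 12 such genes, 11 had a negative log2 fold change, 6 at an unadjusted p under 0.05, and 7 had no overlap with EV400 lower. Over all genes tested, 53.7% were negative, 3.81% had such a p with EV400 lower and 5.57% had no such overlap. The list median was -0.23, and -0.19 without EV200 3 and EV400 3, where 10 of 12 were negative and 3 had an unadjusted p under 0.05. Over all genes tested without both libraries, 2.43% had such a p with EV400 lower. Slc12a1, the sodium-potassium-chloride cotransporter gene targeted by loop diuretics (chromosome 2, 125152510 to 125230002), had 1005, 964 and 1116 CPM against 705, 919 and 760 CPM. The normal libraries had 598 to 732 CPM of it. Here EV400 1 and EV400 3 were well below the EV200 range, and EV400 2 only just below it. The log2 fold change of Slc12a1 was -0.37, and -0.27 without both libraries. Ptger3, a prostaglandin E receptor gene (chromosome 3, 157566821 to 157644758), had 31.5, 26.6 and 29.7 CPM against 17.2, 24.5 and 20.6 CPM, with 22.2 to 32.5 CPM in PBS and 14.7 to 18.2 CPM in normal. The log2 fold change of Ptger3 was -0.49 (SE 0.16, unadjusted p 0.00806) and -0.47 without both libraries. Slc14a2, a urea transporter gene, had 50.2, 51.2 and 90.3 CPM against 6.63, 34.7 and 28.5 CPM, so its value in EV400 1 was far below those of both other EV400 libraries, and its log2 fold change was -1.46, or -1.29 without both. Umod, encoding the urinary protein uromodulin, had 2880, 2658 and 2954 CPM against 2379, 2640 and 2367 CPM, with a log2 fold change of -0.20 (SE 0.11, unadjusted p 0.0916), and -0.14 without both. In whole kidney RNA, fewer cells of a type and less RNA per cell cannot be told apart.

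Irx5, a transcription factor gene of the Iroquois family, which patterns nephron segments (chromosome 8, 92357796 to 92361456), had 2.40, 1.87 and 2.15 CPM in EV200 and 0.835, 1.14 and 0.765 CPM in EV400, against 1.68 to 2.28 CPM in PBS and 1.28 to 1.70 CPM in normal. The EV400 values lay below those of every other library. Its log2 fold change was -1.22 (SE 0.23, unadjusted p 0.000173), and -1.10 without both outlying libraries. Its family members Irx1 and Irx2 and the loop of Henle factor Pou3f3 are not covered by the naming rule and were picked with their values in view. Pou3f3 had 67.5, 68.5 and 67.4 CPM in EV200 and 49.8, 53.6 and 54.1 CPM in EV400, a log2 fold change of -0.37 (SE 0.096). Irx2 had 15.2, 14.0 and 17.5 CPM against 10.2, 11.7 and 12.0 CPM, and Irx1 had 38.0, 30.2 and 30.5 CPM against 22.6, 29.9 and 26.5 CPM. Without both libraries the values were -0.39 for Pou3f3, -0.41 for Irx2 and -0.37 for Irx1.

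Of the other genes with EV400 lower that the rule names, St14, encoding the epithelial membrane protease matriptase, had 49.1, 48.9 and 61.3 CPM in EV200 and 36.5, 40.2 and 39.4 CPM in EV400. Its levels were 47.5 to 51.3 CPM in PBS and 30.5 to 32.2 CPM in normal, so EV400 lay between PBS and normal without reaching either. The log2 fold change was -0.46 (SE 0.091, unadjusted p 0.000315) and -0.35 without both outlying libraries. Zfp219, a zinc finger factor gene, had 39.4, 38.5 and 37.1 CPM against 28.4, 32.7 and 25.7 CPM. Itga10, a collagen-binding integrin subunit gene, had 3.04, 2.42 and 1.89 CPM against 1.13, 1.47 and 0.951 CPM. Exons of another gene model cover 33.5% of the exon bases of Itga10, so its counts are uncertain. Hk1, a hexokinase gene that starts glycolysis, had 138, 112 and 120 CPM against 85.3, 105 and 88.8 CPM. Without both outlying libraries the log2 fold changes were -0.35 for Zfp219, -1.07 for Itga10 and -0.39 for Hk1, against -0.41, -1.05 and -0.41 with all 6. A further 7 genes had log2 fold changes of -1.46 for Pcdhga3, -0.78 for Dnase1l2, -0.62 for Ier5l, -0.52 for Map3k21, -0.49 for Abca4, -0.43 for Tinagl1 and -0.41 for Pfkp. They code for a protocadherin, a deoxyribonuclease, an immediate early response protein, a kinase, a retinoid transporter, a basement membrane protein and a phosphofructokinase. None of the 7 overlapped between the doses, which the naming rule required of all but Pfkp, named from a glycolysis list. That list, which also holds Hk1, had 8 positive and 10 negative values among 18 genes (median -0.0026). Bnip3 of the same list had 0.40. Without both libraries the list had 3 positive and 15 negative values (median -0.10). Without both libraries the 7 ran from -1.69 for Pcdhga3 to -0.25 for Pfkp. Pcdhga3 shares 44.9% of its exon bases with other genes of its cluster, so its counts may belong to any of them.

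Among genes with EV400 higher, Nox4, an NADPH oxidase gene of the renal tubule (chromosome 7, 87244430 to 87398710), had 298, 329 and 260 CPM in EV200 and 399, 391 and 433 CPM in EV400. The EV400 values also lay above PBS, at 257 to 303 CPM, and normal, at 333 to 370 CPM. For Nox4 the log2 fold change was 0.46 (SE 0.10, unadjusted p 0.000617), and 0.34 without EV200 3 and EV400 3 (unadjusted p 0.00679). Slc17a5, the lysosomal sialic acid exporter gene, had 71.0, 71.6 and 69.9 CPM against 90.3, 81.1 and 92.4 CPM, with 84.5 to 89.2 CPM in normal. Fut8, which encodes the enzyme of core fucosylation, had 66.6, 65.8 and 64.7 CPM against 81.8, 74.7 and 107 CPM, with EV400 3 the highest. Lin7a, a gene of epithelial polarity, had 4.61, 4.08 and 2.99 CPM against 5.70, 6.47 and 6.89 CPM. Srd5a2, whose enzyme forms dihydrotestosterone, had 19.0, 24.8 and 25.4 CPM against 27.9, 38.1 and 38.0 CPM, all below the 50.1 to 67.5 CPM of normal. The log2 fold changes were 0.31 for Slc17a5, 0.42 for Fut8, 0.70 for Lin7a and 0.59 for Srd5a2, and without both libraries 0.27, 0.25, 0.49 and 0.60 in that order. The mitophagy receptor gene Bnip3, the glucuronosyltransferase gene Ugt2b5, the Golgi gene Arfgap3, the organelle biogenesis gene Hps3 and Tmem198b had log2 fold changes of 0.40, 0.49, 0.34, 0.33 and 0.42. The naming rule required no overlap between the doses for every gene of this paragraph. Without both libraries these 5 had 0.24, 0.34, 0.37, 0.28 and 0.48.

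Ren1, the renin gene (chromosome 1, 133350674 to 133360320), had 23.8, 31.7 and 46.1 CPM in EV200 and 56.2, 65.4 and 50.6 CPM in EV400. PBS libraries lay at 18.6 to 26.04 CPM and normal ones at 30.9 to 39.4 CPM, so all 3 EV400 values lay above the 9 others. Its log2 fold change of 0.76 (SE 0.21, unadjusted p 0.00333) was larger without both outlying libraries, at 1.14 (unadjusted p 9.64e-05). In the renin-angiotensin list, Atp6ap2, the prorenin receptor gene, had 0.16 (unadjusted p 0.0429). The other 8 of 10 tested, with Ace, Agt and Agtr1a among them, had an unadjusted p above 0.05. Xbp1, a transcription factor gene of secretory cells, had 89.0, 94.5 and 137 CPM against 183, 144 and 133 CPM. The ranges overlapped through EV200 3 and EV400 3, and the log2 fold change was 0.52 (SE 0.17), or 0.84 without both (unadjusted p 0.00023). Xbp1 was listed with B and plasma cells, whose 12 other genes each had an unadjusted p above 0.05. Socs2, a cytokine signalling inhibitor gene picked with its values in view, had 6.20, 8.31 and 17.8 CPM against 17.5, 23.1 and 13.1 CPM, and 1.49 without both libraries.

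**Figure D3:**
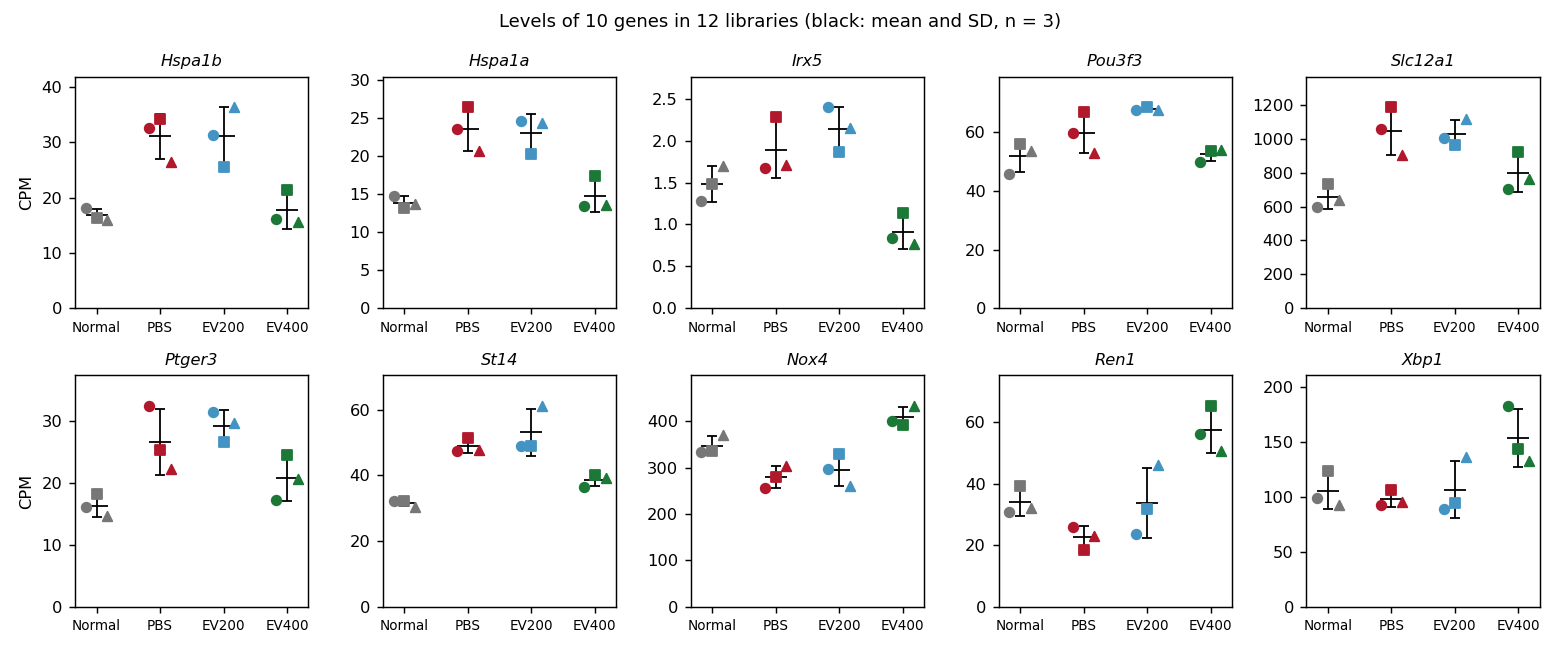
CPM of 10 genes in each of the 12 libraries on linear axes that start at 0, with the mean and SD of each group in black and the marker shape giving the replicate number. In the first 7 panels EV400 lies below EV200 in every library, in Nox4 and Ren1 it lies above, and in Xbp1 the doses overlap.

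Clock genes, which drive daily rhythms of transcription in the kidney, had log2 fold changes of either sign, and edgeR called none of them. The labels used here give no hour of collection. The activator gene Arntl had 5.50, 3.51 and 3.32 CPM in EV200 and 2.15, 2.53 and 1.16 CPM in EV400, while PBS averaged 11.3 and normal 3.24 CPM. Its log2 fold change was -1.07 (SE 0.32, unadjusted p 0.00625), and -0.94 without both outlying libraries. Its partners Npas2 and Clock had -0.99 and -0.21, also with no overlap, and -0.87 and -0.16 without both. In the opposite arm, Ciart, a repressor of that activator complex, had 7.92, 7.96 and 7.404 CPM in EV200 and 10.01, 14.3 and 16.3 CPM in EV400, while PBS averaged 2.46 CPM. Its log2 fold change was 0.80 (SE 0.35, unadjusted p 0.0417) and 0.62 without both libraries (unadjusted p 0.186). The output genes Dbp and Tef were also higher in each EV400 library, at 0.46 and 0.22, with an unadjusted p of 0.17 and 0.155. Without both libraries these were 0.36 and 0.09. Of 13 repressor and output genes, 11 had a positive value (median 0.22), 2 at an unadjusted p under 0.05, and without both 10 did (median 0.11), 0 at that threshold. Of 7 activator-arm genes, 3 had a negative value, each at an unadjusted p under 0.05, and 4 a positive one (median 0.10), and without both the split was also 3 and 4 (median 0.01). Over all genes tested with 6 libraries, 2.53% had such a p with EV400 higher and 3.81% with EV400 lower. The upstream window of Ciart is shown because it holds 3 copies of CACGTG, the E-box bound by the clock activators, which reads the same on both strands, in capitals. These begin 116, 58 and 44 bases before the transcript start of RefSeq's promoter table, in a window of 250 bases on the minus strand (chromosome 3, 95882229 to 95882478). That start, at 95882228, lies 29 bases inside the RefSeq gene (95878500 to 95882257), so the window overlaps its longest form. Of all 32851 windows, 6.02% hold the E-box and 0.0609% hold it 3 or more times.
Ciart: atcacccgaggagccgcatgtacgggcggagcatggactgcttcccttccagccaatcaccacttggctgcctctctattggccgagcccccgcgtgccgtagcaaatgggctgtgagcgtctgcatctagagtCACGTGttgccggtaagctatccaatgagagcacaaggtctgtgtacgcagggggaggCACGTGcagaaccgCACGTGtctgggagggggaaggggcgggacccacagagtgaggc

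Injury and fibrosis genes gave a dose difference that turned with the outlying libraries. All 12 genes of the injury and fibrosis panel had a negative log2 fold change with 6 libraries, with a median of -0.68, and 11 of 12 had a positive one without EV200 3 and EV400 3, with a median of 0.55. Havcr1, the gene of kidney injury molecule 1 (chromosome 11, 46739822 to 46779578), had 3.77, 1.51 and 26.001 CPM in EV200 and 1.61, 3.75 and 1.32 CPM in EV400. PBS had 5.36 to 16.1 CPM and normal 1.18 to 2.07 CPM, so EV200 3 lay above every other dose, PBS and normal library. Its log2 fold change was -2.22 (SE 0.85, unadjusted p 0.0229), the only one of the 12 with an unadjusted p under 0.05, and 0.02 without both libraries (unadjusted p 0.979). Lcn2, encoding the secreted injury marker NGAL (chromosome 2, 32384637 to 32387739), had 2.77, 3.05 and 24.2 CPM against 4.03, 4.95 and 0.603 CPM. Vcam1, an adhesion molecule gene of injured tubules and vessels, had 11.8, 10.6 and 77.9 CPM against 19.6, 23.3 and 6.54 CPM. In both genes EV400 1 and EV400 2 lay above EV200 1 and EV200 2, and the third libraries had the reverse order by a wider margin. Krt20, a keratin gene of injured tubules, had -0.98 with 6 libraries and 1.67 without both (unadjusted p 0.045).

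Among matrix genes, Col1a1 had 12.6, 10.4 and 40.7 CPM in EV200 and 14.2, 21.6 and 5.17 CPM in EV400, with log2 fold changes of -0.63 (SE 0.57) and 0.64 without both libraries. Col3a1 had 30.4, 24.8 and 106 CPM against 37.3, 44.7 and 14.6 CPM, and Fn1, the fibronectin gene, had 40.7, 26.2 and 80.5 CPM against 39.2, 56.4 and 13.1 CPM. Of 30 matrix genes, 28 were negative with 6 libraries and 25 were positive without both, and the median went from -0.44 to 0.36. With 6 libraries 2 had an unadjusted p under 0.05, both with EV400 lower. They were Mmp3, a matrix protease gene, with 0.394, 0.646 and 1.95 CPM against 0.2504, 0.187 and 0 CPM, and Thbs1, encoding thrombospondin, at -0.47. Without both libraries these 2 had -1.23 and -0.15. There 4 other matrix genes had an unadjusted p under 0.05, all with EV400 higher, against 2.39% of all genes tested without both libraries. The 4 were Ltbp2, encoding a latent TGF-beta binding protein relative, at 1.32, the protease inhibitor gene Timp1 at 1.07, the thrombospondin gene Thbs2 at 0.77 and the membrane protease gene Mmp14 at 0.74, picked with their values in view. Leaving out EV200 3 alone gave a median of 0.10, and leaving out EV400 3 alone gave -0.14. Of 29 tubular injury genes, 27 were negative with 6 libraries (median -0.64), 5 at an unadjusted p under 0.05, and 21 were positive without both (median 0.35). Over all genes tested with 6 libraries, 3.81% had such a p with EV400 lower. Krt7 and Itgb6, epithelial keratin and integrin genes with no overlap between the doses, were negative in both comparisons, at -0.30 and -0.35 with 6 libraries and -0.16 and -0.25 without both.

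**Figure D4:**
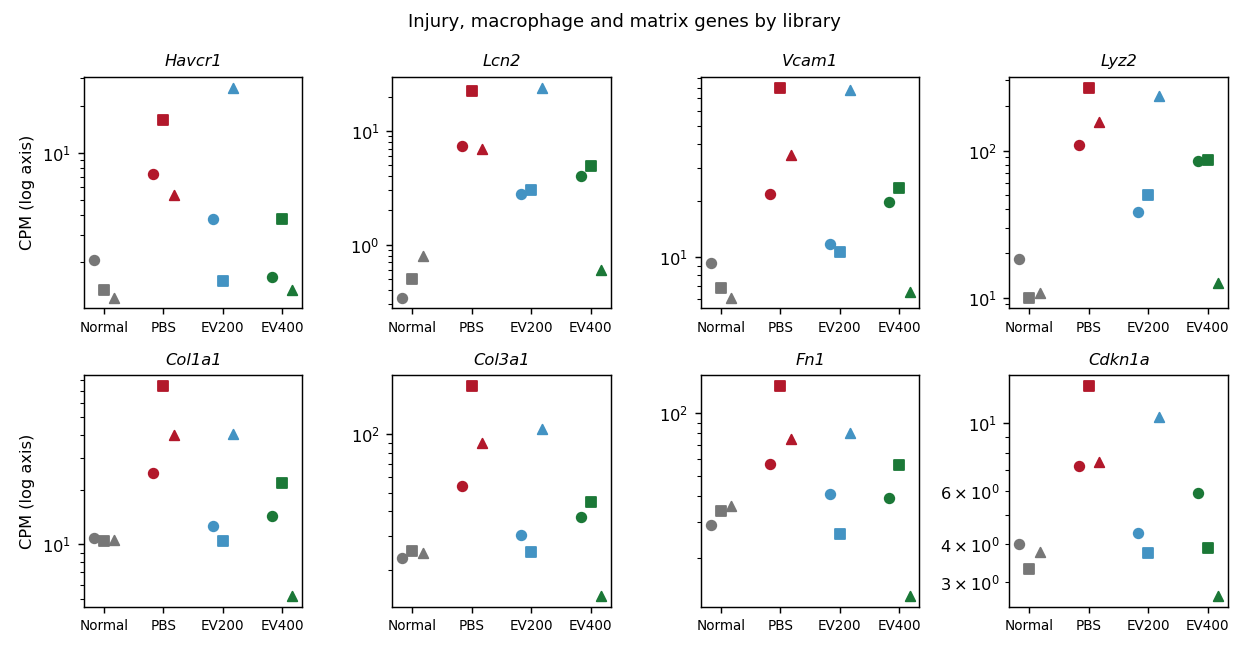
CPM on log axes of 8 injury, macrophage and matrix genes in each of the 12 libraries, with the marker shape giving the replicate number. In each panel EV200 3 (blue triangle) lies in or above the PBS range and is the highest dose library, while EV400 3 (green triangle) is the lowest dose library.

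Macrophage and dendritic cell markers followed the same split. With 6 libraries 23 of 24 were negative (median -0.50), none at an unadjusted p under 0.05, and without both libraries 23 of 24 were positive (median 0.63), 7 at an unadjusted p under 0.05. Over all genes tested without both libraries, 2.39% had such a p with EV400 higher. Lyz2, a lysozyme gene of myeloid cells, had 38.1, 49.9 and 236 CPM in EV200 and 85.6, 86.6 and 12.6 CPM in EV400. Gpnmb, a gene of phagocytic macrophages, had 2.03, 3.84 and 15.2 CPM against 12.4, 9.18 and 0.162 CPM, with log2 fold changes of 0.05 and 1.89 (unadjusted p 0.00408 without both). Summed over the 24 markers, EV200 had 590, 634 and 1650 CPM, EV400 776, 825 and 435 CPM, PBS 948 to 1765 CPM and normal 428 to 621 CPM. The only marker at 0 in a dose library was Trem2, in EV400 3. T and natural killer cell markers went from a median of -0.22 to 0.36, and fibroblast and pericyte markers from -0.19 to 0.33. The part of these cells in the other dose differences was not tested.

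Urothelial genes, which mark the lining of the renal pelvis and urinary tract, split the EV200 group differently. All 10 tested of 12 listed had a negative log2 fold change, 8 at an unadjusted p under 0.05, with a median of -2.66, and -1.88 without both outlying libraries, where 3 had an unadjusted p under 0.05. Over all genes tested, 3.81% had such a p with EV400 lower, and 2.43% without both libraries. Gsdmc2, a gasdermin gene, had 0.263 CPM in EV200 1 against 5.06 and 5.43 CPM in EV200 2 and EV200 3, and 0.417, 0.373 and 0.533 CPM in EV400. Krt5, the basal keratin gene, had 0, 1.70 and 2.46 CPM in EV200 and 0, 0 and 0.0927 CPM in EV400. Upk3a, a uroplakin gene of the urothelial surface, had 0.0820, 2.35 and 3.03 CPM against 0.501, 0.104 and 0.209 CPM. Summed over the list, EV200 had 3.38, 26.4 and 40.3 CPM, EV400 8.57, 4.58 and 3.64 CPM, PBS 14.7 to 42.9 CPM and normal 2.17 to 4.26 CPM. EV200 1 thus overlapped the EV400 libraries, and Krt5, Krt15 and Upk2 were at 0 in it. Gsdmc2 and Gsdmc3 are near-identical copies whose reads may be split. The part of urothelial tissue in the other dose differences was not tested.

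**Figure D5:**
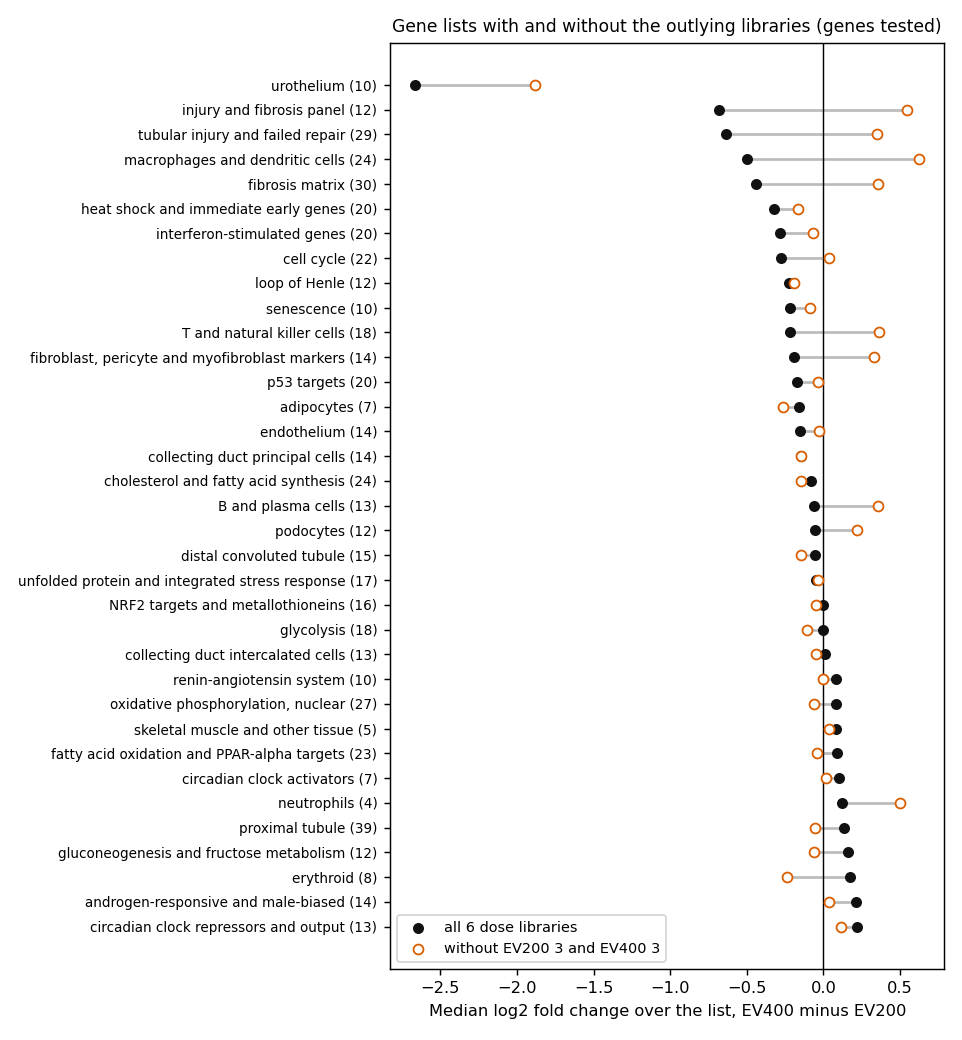
Median log2 fold change, EV400 minus EV200, over the tested genes of 35 lists (number tested in brackets), with all 6 dose libraries (black) and without EV200 3 and EV400 3 (open orange). Injury, macrophage and matrix lists cross 0 from left to right, while the urothelial, loop of Henle and heat shock lists stay left of 0.

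In the further lists of tubular function, metabolism, DNA damage and division edgeR called no gene. Of 39 proximal tubule genes, 33 had a positive log2 fold change with 6 libraries (median 0.14) and 17 without both (median -0.05). Cyp2e1, a cytochrome gene, had 1737, 1601 and 1387 CPM in EV200 and 1919, 1813 and 2330 CPM in EV400, and Slc5a12, a lactate transporter gene, had 395, 407 and 313 CPM against 491, 445 and 442 CPM. Both had no overlap, with log2 fold changes of 0.36 and 0.31 (unadjusted p 0.0226 and 0.028), and 0.17 and 0.23 without both libraries. All 14 androgen-responsive genes had a positive value (median 0.21), and 11 of 14 did so without both (median 0.03). Nuclear genes of oxidative phosphorylation had a median of 0.08, and -0.06 without both, with 0 of 27 at an unadjusted p under 0.05. Of 20 p53 targets, 16 were negative (median -0.17), with Aen at -0.27 and Zmat3 at -0.19, both with no overlap. Without both libraries 12 were negative (median -0.04), with Aen at -0.34 and Zmat3 at -0.19. Of 22 cell cycle genes, 19 were negative (median -0.28), and the median was 0.04 without both. Top2a, a topoisomerase gene of dividing cells, had 2.97, 2.84 and 8.08 CPM in EV200 and 1.96, 2.88 and 1.74 CPM in EV400, so EV200 3 was the highest.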

How the data were processed

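Kidney RNA of 12 mouse libraries in 4 groups was compared, per the labels. A stranded mRNA kit and paired reads of 101 bases were used, per the labels. HISAT2 2.1.0, StringTie 2.1.3b, Trimmomatic 0.38 and FastQC 0.11.7 and the builds GRCm38 and mm10 are listed, per the submitters' processing notes. Which counter, strand setting and annotation gave the counts is not given in the sources used here. Whole-number read counts per gene, as the authors deposited them, were used unchanged, and 24 further columns of FPKM and TPM values were not used. Of the gene identifiers, 45679 matched RefSeq's GRCm38.p6 table, the source of coordinates and promoter windows, and exon overlaps were looked up in GENCODE for GRCm38.

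Counts of all 12 libraries were fitted in R 4.3.3 with edgeR 4.0.16 (TMM factors, default filter by group, 8 residual degrees of freedom, Benjamini-Hochberg over 18730 genes). CPM are scaled by the TMM factor, and the standard error (SE) is the log2 fold change divided by the square root of F. Alternatives were DESeq2 1.42.0, limma-voom (limma 3.58.1) with quality weights, other filters and factors, fewer groups, a replicate block, a minimum log2 fold change of 1 and the omission of each library or of both outlying ones. The test was checked on simulated data. No pair of the 6 dose libraries agreed within sampling noise.

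Named genes were 12 per direction with no overlap, at least 1 CPM and the smallest p (only 1 gene was called), 12 panel genes, and up to 3 genes of each of 35 lists that had a member with an unadjusted p under 0.05. Members and lists were chosen with earlier results of these data known. List counts and medians are descriptions without a test. Some named genes are not reported here.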

Additional observations from a re-analysis of the deposited data

How the results depend on the processing

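The count of called genes was 1 with the scaling factors of DESeq2, with no filter, against a minimum log2 fold change of 1 and when any 1 of the 12 libraries was left out, and LOC115488616 had an adjusted p of 0.0198 to 0.041 over these omissions. By edgeR it was 0 with a filter of 1 CPM in 3 libraries, which removes LOC115488616, 0 in a fit of the 6 dose libraries alone (adjusted p of LOC115488616 0.863), and 0 without EV200 3 and EV400 3 (0.115). DESeq2 called 17 genes and limma-voom with quality weights 145, 13 of them shared, all with LOC115488616. DESeq2's calls hold Hspa1b, Hspa1a, Irx5, Nox4, St14, Zfp219, Abca4, Pcdhga3, Itga10, Dnase1l2, Slc17a5 and TrnL1, so these are calls of that tool and not of edgeR. Limma-voom weighted EV200 3 by 0.283 and EV400 3 by 0.344. In a fit of the 4 remaining dose libraries alone, with 2 residual degrees of freedom, edgeR called 10 genes, not LOC115488616. With the replicate number as a block, edgeR called 0 genes in 12 libraries (adjusted p of LOC115488616 0.117) and 0 in the 6 dose libraries. Same-numbered EV200 and EV400 libraries deviated from their group means with correlations of -0.17, -0.17 and -0.39. These cannot decide whether the numbers pair the samples. Deviations from a mean of 3 libraries depend on one another, and EV200 3 and EV400 3 lay near opposite ends of the first component.

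Signs reversed mainly in the injury panel. Without EV200 3 and EV400 3, log2 fold changes were 0.22 for Acta2, 0.27 for Cdkn1a, 0.58 for Col3a1, 0.64 for Col1a1, 0.52 for Fn1, 0.63 for Lcn2, 0.70 for Ccl2, 0.11 for Tgfb1, 0.94 for Vcam1, 1.67 for Krt20, 0.0162 for Havcr1, 0.26 for Ighm, -0.20 for Hbb-bt, -0.23 for Hbb-bs and -0.0148 for Sord. In the 4 dose libraries alone they were 0.22, 0.27, 0.57, 0.64, 0.51, 0.63, 0.69, 0.11, 0.94, 1.66, 0.0131, 0.25, -0.20, -0.24 and -0.0195, in that order. Limma-voom gave 0.04 for Acta2, 0.31 for Cdkn1a, 0.34 for Col3a1, 0.26 for Col1a1, 0.33 for Fn1, 0.0656 for Lcn2, 0.82 for Ccl2, 0.0425 for Tgfb1, 0.57 for Vcam1, 1.5001 for Krt20, -0.10 for Hbb-bt, -0.12 for Hbb-bs and -0.0917 for Cyp4a12a. The block in 6 libraries gave 0.0464 for Krt20. Over single omissions the values ran from -0.46 to 0.15 for Acta2, -0.92 to 0.037 for Cdkn1a, -1.07 to 0.23 for Col3a1, -1.12 to 0.25 for Col1a1, -0.91 to 0.11 for Fn1, -2.10 to 0.14 for Lcn2, -1.58 to 0.32 for Ccl2, -1.44 to 0.56 for Vcam1, -1.49 to 1.17 for Krt20, -0.70 to 0.0788 for Ms4a1, -0.0538 to 0.39 for Hbb-bt and -0.0695 to 0.37 for Hbb-bs. The positive values of the panel genes among them came without EV200 3. The median changed sign in 16 of 35 lists without both libraries, in 11 without EV200 3, in 6 without EV400 3 and in 6 without EV200 1. The cause was not tested. Of 2399 values of 105 genes under the alternatives, 57 reversed, 33 became calls, 5 ceased to be calls and 2304 kept their side of the threshold. With 3 libraries a dose, a gene that was not called is not shown to be equal.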

Other observations

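Transcripts of the mitochondrial genome gave no call by edgeR. All 18 tested mitochondrial tRNA genes had a positive log2 fold change (median 0.45), 9 at an unadjusted p under 0.05 by edgeR and 8 with no overlap. Over all genes tested, 2.53% had such a p with EV400 higher and 5.1% had no such overlap. The tRNA median was 0.32 without EV200 3 and EV400 3, where 4 had an unadjusted p under 0.05. Over all genes tested without both libraries, 2.39% had such a p with EV400 higher. TrnL1, a leucine tRNA gene, had 31.7, 34.7 and 28.03 CPM in EV200 and 64.8, 51.1 and 41.1 CPM in EV400, so the library with the highest mitochondrial mRNA share, EV400 3, had the lowest TrnL1 of the EV400 group. TrnN had 0.0985, 0.0923 and 0.104 CPM against 0.355, 0.269 and 0.325 CPM, and TrnW had 1.48, 1.68 and 1.64 CPM against 3.82, 3.09 and 2.25 CPM. The 13 mitochondrial mRNAs were also all positive with 6 libraries (median 0.29), 5 at an unadjusted p under 0.05, but their median was 0.06 without both libraries, where none had an unadjusted p under 0.05 by edgeR. Of these mRNAs, ND5 and ND6, encoding subunits of the first respiratory complex, had no overlap, with ND6 at 393, 519 and 487 CPM against 584, 619 and 644 CPM. These genes were picked with their values in view, except TrnL1 and TrnW, which the naming rule covers.

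Some genes had reads at 1 dose only. These were counted over all 45777 genes of the table, tested or not. In 112 of them every EV400 library had a count of 0 and each EV200 library at least 1 read, and in 21 the reverse held. With at least 5 reads in each library of the other dose, these were 14 and 3 genes. The EV200 libraries were the deeper ones, at 53.02 to 61.8 M counts against 47.8 to 48.4 M, and the part of depth in these numbers was not tested. Of named protein-coding genes among the 14, Glrb had 5, 5 and 26 reads, Htr2b 5, 5 and 16, Pax9 7, 5 and 10 and Btbd17 5, 7 and 13 reads in the EV200 libraries. The normal libraries had 0 to 3 reads of each of these genes. In the same order of genes, PBS 1 had 10, 0, 0 and 0 reads, PBS 2 had 48, 20, 12 and 13, and PBS 3 had 12, 6, 5 and 0. Gm38431 had 16, 42 and 346 reads in EV200 and 0 in each EV400 library, but also 0 in PBS 1 and PBS 2 and in 2 of 3 normal libraries, with 243 reads in the other.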
